A study of Homo sapiens with 6 samples.

Results

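The nuclear genes of respiratory complexes II to V and of cytochrome c were followed in HOS cells, an established human cell line from a malignant bone tumour. The members were the rows of the deposited expression table whose symbol starts with UQCR, COX4 to COX8 or ATP5, or is CYC1, CYCS, SDHA, SDHB, SDHC or SDHD, without hyphenated read-through genes. This gave 47 of the 16376 genes in the table: 4 of complex II, 10 of complex III, cytochrome c (CYCS), 13 of complex IV and 19 of complex V. Cells treated with Agrimol B, a phloroglucinol derivative of agrimony plants, for 24 h (3 libraries) were compared with control cells (3 libraries), which the labels list as untreated and which carry the same wild-type genotype label. The labels do not say whether control cells received the solvent or whether replicates were separate cultures (dose: not given in the sources used here). A time, 24 h, is listed for the Agrimol B cells only, so whether control cells were collected at the same time is not known. Values are FPKM, fragment counts scaled by the authors to transcript length and sequencing depth. P-values therefore rest on differences among libraries that may be technical repeats.

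Electrons from succinate enter the respiratory chain at complex II, pass through complex III to the soluble carrier cytochrome c, and reach oxygen at complex IV. Complexes III and IV pump protons across the inner mitochondrial membrane, and complex V (ATP synthase) lets them flow back through a rotating ring of c subunits to make ATP. Complex II is encoded wholly in the nucleus, while complexes III, IV and V also hold subunits encoded in mitochondrial DNA, of which the table held 0 genes. Their messenger RNA is therefore not described here.

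The subunit genes fell more often than they rose. Of 44 members that reached a mean of 1 FPKM and were tested, 21 fell, 3 rose and 20 were not called (limma, Benjamini-Hochberg adjusted p under 0.05 over all 12143 genes tested). Over all genes tested 21.4% were called lower and 30.6% higher, against 47.7% lower and 6.82% higher among the tested members. The median difference in log2(FPKM + 1) was -0.19 over the tested members and 0.07 over all genes tested, and 41 of the 44 members lay below that overall median. Most differences were small: 4 of the 21 falls (ATP5MC1, ATP5MC3, COX6B1 and UQCR10) and 0 of the 3 rises reached 0.5 on the log2 scale. The 3 remaining members, COX6B2, COX8C and ATP5MGL, reached at most 0.235, 0.0795 and 0.0715 FPKM in any library and were not tested. With median-ratio scaling between libraries, which puts the overall median at 0.003 in place of 0.07, 27 members were lower and 1 was higher. Under that scaling 3164 of all 12143 genes tested were lower and 3067 higher, against 2598 and 3713 without it.

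**Figure D1:**
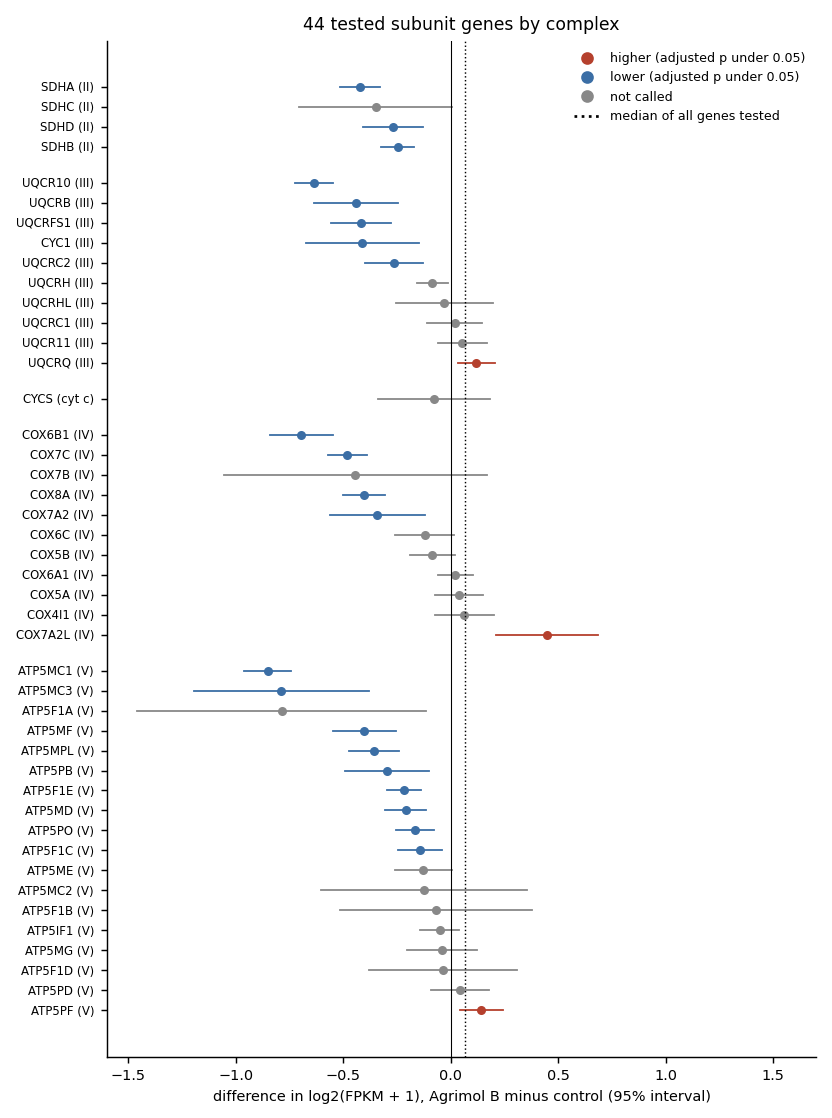
Difference in log2(FPKM + 1), Agrimol B minus control, for each of the 44 tested members, grouped by complex from top to bottom. Points are estimates and lines 95% intervals from limma (3 libraries per group), and the dotted line marks the median of all genes tested (0.07). All 4 complex II points lie left of 0, while complexes III, IV and V each hold called falls, 1 called rise and members that were not called.

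The summed FPKM of the members was lower in the Agrimol B libraries for each of the complexes II to V. For complex II the sums were 215, 209 and 218 FPKM in Agrimol B libraries and 266, 268 and 264 FPKM in control libraries. The mean sum differed by -19.6%, the largest relative difference of the 4 complexes. For complex III the sum averaged 824 ± 12.02 FPKM with Agrimol B and 944 ± 27.8 FPKM in control, for complex IV 1272 ± 12.5 and 1451 ± 17.6 FPKM, and for complex V 2106 ± 43.7 and 2424 ± 86.7 FPKM (mean ± SD, n = 3 libraries each). These sums differed by -12.7%, -12.3% and -13.1%. The 3 Agrimol B sums lay below the 3 control sums in all of these complexes. No test was made of sums, and whether the differences between complexes exceed the spread of their members was not tested.

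**Figure D2:**
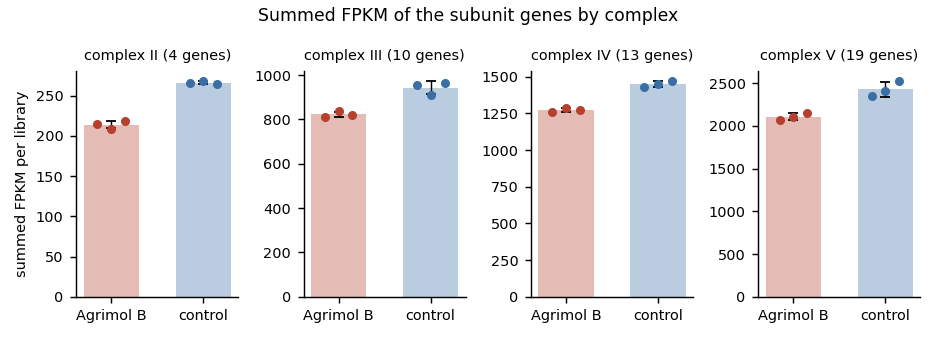
Summed FPKM of the members of each complex per library, with Agrimol B on the left and control on the right of each panel. Points are the 3 libraries, bars the group means and error bars the SD. For complex V the Agrimol B points lie between 2064 and 2151 FPKM and the control points between 2349 and 2519 FPKM.

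Upstream sequences of 4 members are shown because ATP5MC1, COX6B1 and UQCR10 had the largest called falls among members with a RefSeq window and UQCRQ was the 1 called rise with a single window. Each line gives the 250 bases before the RefSeq start (GRCh38.p14), 5′ to 3′ on the gene's strand, and capitals mark matches on either strand to the letters searched: GCGCATGCG (NRF1), CCGGAAG (ETS factors such as GABPA), ATGGCGGC (YY1), CCAAT (the CCAAT box) and TGATGNAA (ATF4).
ATP5MC1, chr17:48892537-48892786, plus strand: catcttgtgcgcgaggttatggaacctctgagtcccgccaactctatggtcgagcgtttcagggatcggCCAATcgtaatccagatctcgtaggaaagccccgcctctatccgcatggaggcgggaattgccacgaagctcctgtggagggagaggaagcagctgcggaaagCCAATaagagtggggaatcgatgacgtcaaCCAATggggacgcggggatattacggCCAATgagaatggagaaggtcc
COX6B1, chr19:35648073-35648322, plus strand: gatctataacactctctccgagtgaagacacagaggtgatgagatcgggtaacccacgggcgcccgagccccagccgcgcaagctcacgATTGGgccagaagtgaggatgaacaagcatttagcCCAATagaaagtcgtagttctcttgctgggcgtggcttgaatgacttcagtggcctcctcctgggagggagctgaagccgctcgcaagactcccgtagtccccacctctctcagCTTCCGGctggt
UQCR10, chr22:29767119-29767368, plus strand: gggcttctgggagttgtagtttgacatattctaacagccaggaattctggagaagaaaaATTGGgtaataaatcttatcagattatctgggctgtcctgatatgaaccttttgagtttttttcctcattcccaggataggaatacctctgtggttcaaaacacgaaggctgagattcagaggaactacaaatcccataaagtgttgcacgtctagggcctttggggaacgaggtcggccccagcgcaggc
UQCRQ, chr5:132866392-132866641, plus strand: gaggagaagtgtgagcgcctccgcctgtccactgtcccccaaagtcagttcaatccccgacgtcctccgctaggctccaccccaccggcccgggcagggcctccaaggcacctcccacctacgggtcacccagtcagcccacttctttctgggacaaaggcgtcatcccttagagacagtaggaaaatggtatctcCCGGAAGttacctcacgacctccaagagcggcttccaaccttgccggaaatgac

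NRF1 and GABPA are transcription factors known to act on many genes of the respiratory chain. The window of ATP5MC1 held 4 CCAAT matches, which begin at -181, -78, -48 and -22 relative to the RefSeq start. At least 4 in the same stretch stood in 2 of the 43 windows of members, that of ATP5MC1 among them. The same held for 1.25% of the windows of tested genes and 0.874% of all 35116 RefSeq windows. COX6B1 held an ETS match at -12 and CCAAT matches at -161 and -126, UQCR10 a CCAAT match at -191, and UQCRQ an ETS match at -54. The GENCODE annotation places the starts of ATP5MC1, COX6B1 and UQCRQ inside the printed stretches, at 48892765, 35648223 and 132866560. By that annotation both ETS matches and the CCAAT match of ATP5MC1 at -22 lie at or past the start of the gene. RefSeq windows of 300 bases (250 before and 50 after a start) were found for 37 members, 43 windows in all. The ETS letters stood in 39.5% of these windows, against 16.9% of the windows of tested genes and 10.3% of all windows. The NRF1 letters stood in 13.95%, against 3.09% and 1.92%, and the CCAAT letters in 41.9%, against 34.5% and 34.6%. The YY1 letters stood in 6.98%, against 5.45% and 3.00%, and 0 windows of members held the ATF4 letters, against 1.97% and 3.62%. By call, ETS letters were found in 5 of 18 windows of members that fell, 9 of 18 of members not called and 3 of 5 of members that rose. Those 5 windows belong to 3 genes, and ATP5PF alone held 2 of the ETS windows. In the same order the CCAAT letters stood in 7 of 18, 8 of 18 and 2 of 5 windows, and the NRF1 letters in 2 of 18, 3 of 18 and 1 of 5. Whether these shares differ by call was not tested. A match describes the letters only, and windows of 1 gene can overlap.

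In complex II, 3 of 4 subunits fell and the fourth was lower without a call. Over all genes tested 21.4% were called lower, and with 4 genes no share was read against that. SDHA, the flavoprotein that oxidizes succinate (chromosome 5, 218241 to 256700, plus strand), had 57.5, 57.8 and 59.1 FPKM in Agrimol B libraries and 80.6, 77.7 and 76.2 FPKM in control libraries. The groups did not overlap, and SDHA fell by 25.6% (log2 difference -0.42 ± 0.04 SE, adjusted p = 0.000325). SDHB, the iron-sulfur subunit, had 90.6, 88.8 and 90.8 FPKM with Agrimol B and 106, 108 and 107 FPKM in control, and fell by 15.9% (adjusted p = 0.00128). Libraries of the same group lay close together for SDHB, and the groups did not overlap. The membrane anchors SDHC and SDHD bind quinone. SDHD, which overlaps TIMM8B on the other strand, fell by 17.3%, to 54.2 ± 3.22 FPKM with Agrimol B against 65.6 ± 2.54 FPKM in control (SD, n = 3 each; adjusted p = 0.00913). SDHC had 10.5, 11.8 and 12.6 FPKM with Agrimol B and 13.97, 18.9 and 12.9 FPKM in control, and was not called (log2 difference -0.35, 95% interval -0.70 to 0.01, adjusted p = 0.0893). Of the 50-base words in its longest coding transcript, SDHA shared 22.3% with other annotated genes, among them SDHAP3 and SDHAP1, which carry the names of its pseudogenes, and SDHD 27.7%, and how far reads were divided between these genes is not known.

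In complex III, 5 of 10 genes fell and 1 rose (50% and 10%, against 21.4% and 30.6% over all genes tested). Both subunits that carry electrons to cytochrome c fell. The Rieske iron-sulfur protein UQCRFS1 had 29.4, 32.1 and 33.4 FPKM with Agrimol B and 41.9, 43.5 and 42.1 FPKM in control, and fell by 25.6% (adjusted p = 0.00162). The heme protein CYC1 had 105, 131 and 112 FPKM with Agrimol B and 165, 137 and 161 FPKM in control, and fell by 24.9% (adjusted p = 0.0201). Replicate 2 was the highest Agrimol B library and the lowest control library for CYC1, so that the groups nearly met there. Its call was lost without Agrimol B replicate 1 or 3 or control replicate 1 or 3, with adjusted p between 0.0588 and 0.0627. Its adjusted p lay between 0.0111 and 0.0641 in every alternative run.

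The core proteins of complex III, which face the matrix, differed in their calls. UQCRC2 had 60.3, 53.9 and 60.6 FPKM with Agrimol B and 69.3, 69.4 and 71.4 FPKM in control, and fell by 16.8% (adjusted p = 0.00885). UQCRC1 had 111, 113 and 109 FPKM with Agrimol B and 117, 104 and 107 FPKM in control, and the groups overlapped (log2 difference 0.02, 95% interval -0.11 to 0.15, adjusted p = 0.802). The 95% intervals of the 2 differences did not overlap, and the difference between the 2 genes was not tested as such.

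Among the small supernumerary subunits of complex III, UQCR10 stood out in size. UQCR10 (chromosome 22, 29767369 to 29770413, plus strand) had 77.3, 79.2 and 79.9 FPKM with Agrimol B and 120, 123 and 127 FPKM in control. The groups were far apart relative to their spread, and UQCR10 fell by 36.0% (log2 difference -0.64 ± 0.04 SE, adjusted p = 7.40e-05). UQCRB fell by 27.0%, to 29.8 ± 1.85 FPKM with Agrimol B against 40.8 ± 3.65 FPKM in control (adjusted p = 0.00491). UQCRQ rose by 8.66%, to 88.0 ± 2.02 FPKM with Agrimol B against 81.0 ± 1.03 FPKM in control (adjusted p = 0.0319). The call of UQCRQ was lost when any library except Agrimol B replicate 1 was left out (adjusted p 0.0627 to 0.0895), with quantile normalization (0.0516), without the variance trend (0.0627) and with median-ratio scaling (log2 difference 0.05 in place of 0.12, adjusted p = 0.296). Its adjusted p lay between 0.0303 and 0.296 in every alternative run. UQCR11 (73.2 ± 1.76 FPKM with Agrimol B, 70.5 ± 3.17 FPKM in control) and UQCRH (237 ± 0.837 and 251 ± 4.37 FPKM, adjusted p = 0.0519) were not called. UQCRH shared 29.4% of its 50-base words with other genes, led by its near-copy UQCRHL, which averaged 1.04 FPKM with Agrimol B and 1.09 FPKM in control and was not called either.

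Cytochrome c, the carrier between complexes III and IV and an activator of caspases once released to the cytosol, was not called. CYCS had 56.9, 55.02 and 44.7 FPKM with Agrimol B and 52.1, 60.2 and 52.5 FPKM in control. The groups overlapped, and the 95% interval of the log2 difference ran from -0.34 to 0.18 (adjusted p = 0.580). The annotation lists 40 pseudogenes named after CYCS, and 4.22% of its 50-base words were found in other genes.

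In complex IV, 4 of 11 tested genes fell and 1 rose (36.4% and 9.09%, against 21.4% and 30.6% over all genes tested). COX6B1, which sits on the side facing cytochrome c (chromosome 19, 35648223 to 35658861, plus strand), had 64.2, 73.2 and 69.8 FPKM with Agrimol B and 109, 110 and 117 FPKM in control. The groups did not overlap, and COX6B1 fell by 38.5% (log2 difference -0.69 ± 0.06 SE, adjusted p = 0.000276). COX7C, a small membrane-spanning subunit, fell by 28.6%, to 116 ± 1.14 FPKM with Agrimol B against 163 ± 5.33 FPKM in control (adjusted p = 0.000186). COX8A, another small membrane subunit, fell by 24.4%, to 227 ± 9.19 FPKM against 301 ± 5.62 FPKM in control (adjusted p = 0.000487). COX8A shared 27.7% of its 50-base words with AP000721.1, a gene that overlaps it on the same strand.

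COX4I1 and COX5A, which join the mitochondrially encoded core early in assembly, were not called. COX4I1, which takes part in its regulation by ATP, had 121, 113 and 120 FPKM with Agrimol B and 106, 115 and 118 FPKM in control (log2 difference 0.06, 95% interval -0.08 to 0.20). Its partner COX5A had 126, 123 and 122 FPKM with Agrimol B and 127, 118 and 116 FPKM in control (log2 difference 0.04, 95% interval -0.07 to 0.15). For both genes the groups overlapped, and adjusted p was 0.387 and 0.515. COX6A1, the member with the highest mean FPKM over all libraries, averaged 284 ± 3.73 FPKM with Agrimol B and 280 ± 7.72 FPKM in control (adjusted p = 0.628). It shared 43.98% of its 50-base words with its pseudogene COX6A1P2 and an overlapping gene. COX5B (131 ± 2.79 FPKM with Agrimol B, 139 ± 5.55 FPKM in control) and COX6C (94.97 ± 1.21 and 104 ± 7.42 FPKM) were not called either (adjusted p = 0.136 and 0.119).

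COX7A2 and its relative COX7A2L moved in opposite directions. COX7A2 is the general form of a small complex IV subunit, and COX7A2L holds complexes III and IV together in supercomplexes. COX7A2L (chromosome 2, 42333546 to 42425088, minus strand) had 33.9, 38.8 and 35.6 FPKM with Agrimol B and 23.9, 25.1 and 30.0 FPKM in control. It rose by 37.3% (log2 difference 0.45 ± 0.10 SE, adjusted p = 0.00976), the largest rise among the members and the only one called under all 13 alternatives run. COX7A2 (chromosome 6, 75237675 to 75250323, minus strand) had 56.1, 61.0 and 50.8 FPKM with Agrimol B and 65.3, 70.2 and 78.0 FPKM in control, and fell by 21.4% (adjusted p = 0.0212). The call of COX7A2 was lost without Agrimol B replicate 1 or 3 or control replicate 2 or 3 with adjusted p between 0.0528 and 0.0566. In every alternative run the adjusted p of COX7A2 lay between 0.0119 and 0.0566. As a share of their summed FPKM, COX7A2L made up 37.7%, 38.9% and 41.2% in Agrimol B libraries and 26.8%, 26.3% and 27.8% in control libraries, a difference of 12.3 percentage points. An exact permutation test over the 6 libraries gave p = 0.1, two-sided, the smallest that 3 against 3 allows, and 0.133 after adjustment over the 4 shares tested.

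**Figure D3:**
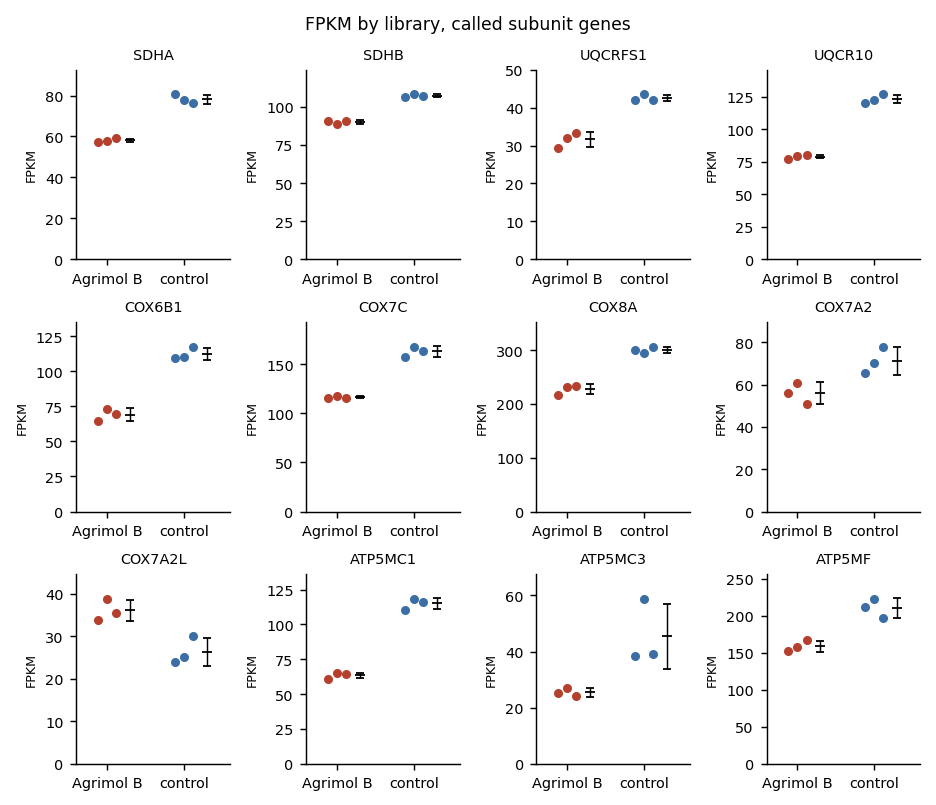
FPKM in each library for 12 called members, with Agrimol B on the left and control on the right of each panel. Coloured points are libraries, and the black mark and bar are the mean and SD (n = 3). COX7A2L is the 1 panel in which the Agrimol B points lie above the control points, and in the other 11 panels they lie below.

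In complex V, 9 of 18 tested genes fell and 1 rose (50% and 5.56%, against 21.4% and 30.6% over all genes tested). The parts of complex V hold few genes each, and their counts were not read against these shares. The 3 nuclear genes of subunit c differ in the targeting peptide and encode the same mature ring protein. ATP5MC1 (chromosome 17, 48892765 to 48895871, plus strand) had 61.0, 64.8 and 64.4 FPKM with Agrimol B and 111, 118 and 116 FPKM in control. The groups did not overlap, and ATP5MC1 fell by 44.9%, more than any other called member (log2 difference -0.85 ± 0.04 SE, adjusted p = 5.75e-05). ATP5MC3 (chromosome 2, 175176258 to 175184607, minus strand) had 25.1, 27.0 and 24.1 FPKM with Agrimol B and 38.3, 58.8 and 39.3 FPKM in control, and fell by 44.1% (log2 difference -0.79 ± 0.17 SE, adjusted p = 0.00918). Control replicate 2 stood above the other control libraries, and without it the log2 difference of ATP5MC3 was -0.59 (adjusted p = 0.00208). ATP5MC2 (chromosome 12, 53632726 to 53677408, minus strand), with the highest mean FPKM of the 3 in each group, had 85.1, 122 and 124 FPKM with Agrimol B and 129, 94.6 and 137 FPKM in control. The groups of ATP5MC2 overlapped (log2 difference -0.13, 95% interval -0.61 to 0.35, adjusted p = 0.622).

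Summed over the 3 genes, subunit c transcripts came to 171, 213 and 213 FPKM in Agrimol B libraries and 278, 272 and 293 FPKM in control libraries, so that the groups did not overlap. ATP5MC2 made up 49.7%, 57.0% and 58.4% of the sum with Agrimol B and 46.4%, 34.8% and 46.8% in control. ATP5MC1 made up 32.1% ± 3.05 with Agrimol B and 41.0% ± 2.20 in control (SD, n = 3 each). Both shares differed without overlap of the groups, with exact permutation p = 0.1, the smallest possible, and 0.133 adjusted over the 4 shares. The share of ATP5MC3 was 12.9% ± 1.68 with Agrimol B and 16.3% ± 4.65 in control (exact permutation p = 0.4), and its difference of -3.39 percentage points became -0.707 without control replicate 2. None of the genes that shared most 50-base words with each of them was another subunit c gene, and each shared at most 2.12% of its words with other genes.

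**Figure D4:**
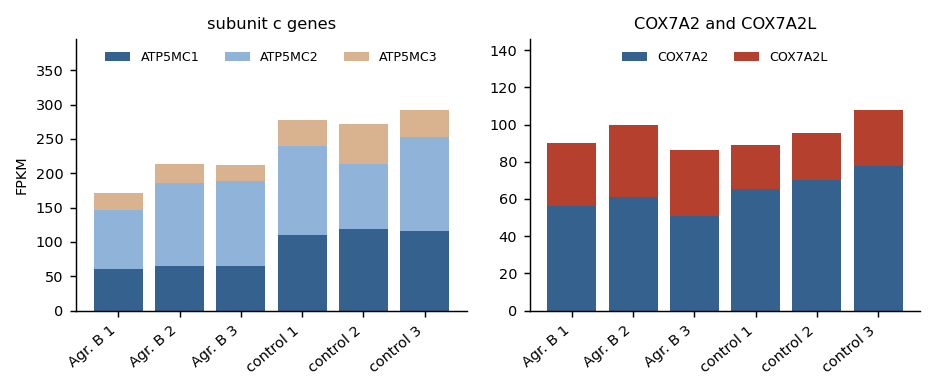
Stacked FPKM per library of the 3 subunit c genes (left) and of COX7A2 with COX7A2L (right), Agrimol B libraries first. The ATP5MC1 segment lies between 61.0 and 64.8 FPKM with Agrimol B and between 111 and 118 FPKM in control, and the COX7A2L segment spans 33.9 to 38.8 FPKM with Agrimol B and 23.9 to 30.0 FPKM in control.

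The F1 part of complex V, a catalytic head that turns over ATP with a central stalk, held 2 falls among 5 genes. Both were genes of the central stalk, and neither head gene, ATP5F1A or ATP5F1B, was called. The log2 difference of ATP5F1A (-0.79) was larger in size than those of the 2 falls (-0.22 and -0.14), with a wider spread. Whether head and stalk genes differ was not tested. ATP5F1A, the alpha subunit, had 75.4, 78.4 and 49.4 FPKM with Agrimol B and 79.5, 141 and 136 FPKM in control. The groups did not overlap but touched at control replicate 1, and ATP5F1A was not called (log2 difference -0.79 ± 0.28 SE, adjusted p = 0.0539). Without control replicate 1 its log2 difference was -1.05 (adjusted p = 0.0136). In every alternative run the adjusted p of ATP5F1A lay between 0.0136 and 0.145. ATP5F1B, the catalytic beta subunit, had 257, 187 and 281 FPKM with Agrimol B and 234, 222 and 302 FPKM in control, and its groups overlapped (log2 difference -0.07, 95% interval -0.52 to 0.38, adjusted p = 0.773). The central stalk, which turns inside the head, comprises ATP5F1C, ATP5F1D and ATP5F1E. ATP5F1E fell by 14.2%, to 71.4 ± 0.725 FPKM with Agrimol B against 83.2 ± 0.806 FPKM in control (adjusted p = 0.00228). ATP5F1C fell by 9.61%, to 115 ± 4.05 FPKM against 127 ± 3.53 FPKM in control (adjusted p = 0.0290), a call lost without the variance trend (adjusted p = 0.0522) and without Agrimol B replicate 1 or 3 or control replicate 1 or 3, with adjusted p between 0.0677 and 0.0832. In every alternative run the adjusted p of ATP5F1C lay between 0.00780 and 0.0832. ATP5F1D averaged 69.0 ± 10.2 FPKM with Agrimol B and 70.9 ± 10.98 FPKM in control and was not called (adjusted p = 0.838).

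Of the 4 genes of the peripheral stalk, which holds the head still, 2 fell and 1 rose. ATP5PB fell by 18.8%, to 104 ± 5.36 FPKM with Agrimol B against 128 ± 12.2 FPKM in control (adjusted p = 0.0227). Its call was lost without Agrimol B replicate 1 or 3 or control replicate 1 or 2 with adjusted p between 0.0513 and 0.0702. In every alternative run the adjusted p of ATP5PB lay between 0.00571 and 0.0702. ATP5PO fell by 11.01%, to 105 ± 1.98 FPKM against 118 ± 3.07 FPKM in control (adjusted p = 0.0105), and shared 69.0% of its 50-base words with AP000311.1, which overlaps it on the same strand. ATP5PF rose by 10.4%, to 128 ± 3.67 FPKM with Agrimol B against 116 ± 3.88 FPKM in control (adjusted p = 0.0300). That call was lost when any 1 library was left out (adjusted p 0.0511 to 0.0807), without the variance trend (0.0543) and with median-ratio scaling (log2 difference 0.07 in place of 0.14, adjusted p = 0.200). Its adjusted p lay between 0.0294 and 0.200 in every alternative run. ATP5PF overlaps GABPA, a gene on the other strand. ATP5PD was not called (100.9 ± 4.18 FPKM with Agrimol B, 98.0 ± 5.50 FPKM in control, adjusted p = 0.555).

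The small membrane subunits of complex V, which shape the dimers that line the cristae, held 3 falls among 5 genes. ATP5MF had 152, 159 and 167 FPKM with Agrimol B and 212, 223 and 197 FPKM in control, and fell by 24.5% (adjusted p = 0.00227). Reads of ATP5MF can overlap with a read-through gene, ATP5MF-PTCD1, which had 0.408 ± 0.0359 FPKM with Agrimol B and 0.628 ± 0.0936 FPKM in control and was under the filter. ATP5MPL fell by 22.1%, to 81.6 ± 2.84 FPKM against 105 ± 4.35 FPKM in control (adjusted p = 0.00143), and ATP5MD fell by 13.6%, to 160 ± 5.44 FPKM against 186 ± 4.47 FPKM in control (adjusted p = 0.00576). ATP5ME (175 ± 8.65 FPKM with Agrimol B, 192 ± 9.30 FPKM in control, adjusted p = 0.0920) and ATP5MG (203 ± 10.2 and 209 ± 15.7 FPKM, adjusted p = 0.636) were not called. ATP5IF1, the inhibitor that blocks ATP hydrolysis when the proton gradient fails, averaged 126 ± 1.05 FPKM with Agrimol B and 130.1 ± 4.35 FPKM in control and was not called (adjusted p = 0.294).

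Replicate spread differed widely among the members. The coefficient of variation (SD over mean) within a group had a median of 4.14% with Agrimol B and 4.67% in control over the tested members, against 6.81% and 6.63% over all genes tested. It passed 15% in a group in 8 tested members, and in 29.7% of all genes tested: ATP5F1A, ATP5F1B, ATP5F1D, ATP5MC2, ATP5MC3, COX7B, SDHC and UQCRHL. Of these 8 members 1, ATP5MC3, was called. COX7B, a small subunit of complex IV, had 20.1, 12.4 and 12.6 FPKM with Agrimol B and 27.9, 16.8 and 17.9 FPKM in control. In each group of COX7B replicate 1 stood above the others, the groups overlapped, and the difference was not called (log2 difference -0.44, 95% interval -1.05 to 0.17, adjusted p = 0.185). ATP5F1B was lowest in replicate 2 of both groups, while ATP5MC2 was lowest in Agrimol B replicate 1 and control replicate 2. The alpha and beta genes had 20 and 11 annotated transcripts, and the rule by which the authors' program divided reads among transcripts was not given in the sources used here. What part transcript assignment has in this spread was not tested.

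**Figure D5:**
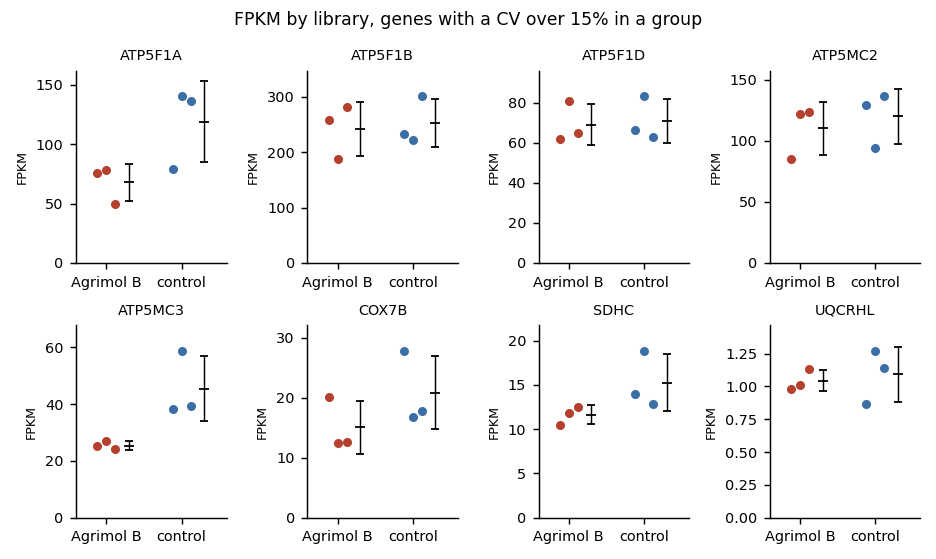
FPKM in each library for the 8 tested members whose coefficient of variation passed 15% in a group, with Agrimol B on the left and control on the right of each panel. Coloured points are libraries, and the black mark and bar are the mean and SD (n = 3). The 3 control values of ATP5F1A run from 79.5 to 141 FPKM and its Agrimol B values from 49.4 to 78.4 FPKM, while in ATP5F1B, ATP5F1D, ATP5MC2, COX7B and UQCRHL the groups overlap.

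Levels also differed within a complex. Among tested members, the means over the 6 libraries ran from 35.3 FPKM (UQCRB) to 244 FPKM (UQCRH) in the supernumerary subunits of complex III, in complex IV from 17.9 FPKM (COX7B) to 282 FPKM (COX6A1), and in complex V from 35.4 FPKM (ATP5MC3) to 247 FPKM (ATP5F1B). FPKM is scaled to length, but how reads were divided among transcripts and among genes with shared sequence is not known. These levels are therefore only a rough guide to differences between genes, and none of them was compared by a test. NDUFA4, once counted with complex I and now with complex IV, lies outside the chosen symbols; it had 42.2, 42.7 and 42.1 FPKM with Agrimol B and 52.1, 45.6 and 47.1 FPKM in control, and fell by 12.3% (adjusted p = 0.0362).

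Other genes of the pathway did not all move the same way. Of 40 factors that assemble complexes II to V, 13 rose and 7 fell (32.5% and 17.5%), shares near those over all genes tested (30.6% higher and 21.4% lower). COX19, which helps deliver copper to complex IV, rose to 7.53 ± 0.255 FPKM with Agrimol B against 3.71 ± 0.106 FPKM in control (adjusted p = 8.84e-05). SDHAF1, which helps insert iron-sulfur clusters into SDHB, rose by 54.7% (adjusted p = 0.000569), while SDHB itself fell. UQCC1, an assembly factor of complex III, fell by 35.6% (adjusted p = 0.0271). Of 37 subunits of complex I, the other entry point of electrons, 10 fell and 5 rose (27.0% and 13.5%), with a median log2 difference of -0.08, against 21.4% lower and 30.6% higher over all genes tested. NDUFB9 fell by 52.3%, NDUFA8 fell by 35.5%, and NDUFB5 rose by 48.2% (adjusted p = 0.00454, 0.000550 and 0.00968).

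Of 14 tricarboxylic acid cycle genes 4 fell and 0 rose (28.6% lower, against 21.4% over all genes tested; median log2 difference -0.13). OGDH fell by 30.9%, DLD fell by 19.7%, and SUCLG1, whose groups overlapped, fell by 17.05% (adjusted p = 0.0111, 0.0215 and 0.0487). Of 7 genes that carry ATP, phosphate and metabolites across the mitochondrial membranes, 3 fell and 0 rose (42.9% lower; median log2 difference -0.07), and with so few genes no share was read against the background. The channels VDAC3 fell by 26.0%, VDAC1 fell by 24.4%, and the ADP/ATP carrier SLC25A5 fell by 13.99% (adjusted p = 0.000316, 0.0115 and 0.00126). Of 10 genes that support mitochondrial messenger RNA and translation, 3 fell and 1 rose (30.0% lower and 10.0% higher; median log2 difference -0.16), among them CLUH, which binds messenger RNAs of mitochondrial proteins and fell by 33.8%, SLIRP, which fell by 19.4%, and MTIF2, which rose by 20.7% (adjusted p = 0.000780, 0.00643 and 0.00708). Of 14 tested regulators of respiratory genes 3 rose and 2 fell (21.4% and 14.3%; median log2 difference 0.001), neither share above that over all genes tested. GABPB2, TFB1M and PPRC1 rose by 57.2%, 28.2% and 21.1% (adjusted p = 0.00560, 0.00715 and 0.00558).

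Over all tested genes, Pearson r of log2(FPKM + 1) was 0.986 to 0.988 within a group and 0.947 to 0.950 between groups, and total FPKM ran from 352990 to 355241 with Agrimol B and from 355550 to 359537 in control. Of 7 osteoblast and mesenchymal markers 6 had values, all above 1 FPKM, and their summed level was 1005 to 1061 FPKM with Agrimol B and 1455 to 1545 FPKM in control. The largest part of this sum was VIM, with 532 to 546 FPKM with Agrimol B and 700 to 712 FPKM in control. ALPL, COL1A1, COL1A2, SPARC and VIM were each lower in every Agrimol B library. RUNX2 was not, with overlapping groups of 4.99 to 8.16 FPKM with Agrimol B and 4.76 to 5.51 FPKM in control. Of the epithelial markers EPCAM stood at 12.8 to 14.7 FPKM with Agrimol B and 13.01 to 14.3 FPKM in control, while CDH1 reached at most 0.400 FPKM with Agrimol B and 0.439 FPKM in control. The third epithelial marker, KRT19, ran from 0 to 3.17 FPKM with Agrimol B and from 0 to 0.209 FPKM in control. The summed endothelial markers ran from 0.0566 to 0.0892 FPKM with Agrimol B and from 0.471 to 0.764 FPKM in control, and the blood marker PTPRC reached at most 0.0578 FPKM with Agrimol B and was at 0 in control. The part of these markers in the results was not tested. In these bulk samples, less RNA per cell and fewer cells of a kind cannot be told apart.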

How the data were processed

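RNA of 6 HOS libraries (stranded mRNA kit, per the labels' protocols) was sequenced. The authors deposited FPKM values, 1 column per library. Per the submitters' processing notes, HISAT, Trimmomatic, cutadapt, FastQC and hg38 were used, with no version or role stated (program and annotation behind the FPKM values: not given in the sources used here). Control columns were matched to their samples by replicate number, since their prefix (NC) differs from that of the descriptions (CN).

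The test was limma 3.58.1 under R 4.3.3 (group term, empirical Bayes with a variance trend, two-sided) on log2(FPKM + 1) of the 12143 genes whose mean over libraries reached 1 FPKM, with Benjamini-Hochberg adjustment over all of them. A log2 difference on this scale understates changes of low genes. The percentages by which genes rose or fell compare group means of FPKM. Depth in reads is unknown. The steps of the lowest values gave depths of 0.990 to 1.19 relative to control replicate 1, but at most 10.8% of those values sat on a common step, so counts were not recovered. The code of the fit was also run on data simulated from the fitted model itself. Such data follow the model by construction, so that run checks the code and cannot show whether the calls hold. Positions, transcript counts and shared 50-base words come from GENCODE release 29 (GRCh38), which named all 47 members; upstream sequences come from RefSeq (GRCh38.p14), which gave windows for 37.

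Members, lists and tests were chosen with earlier results of these data known. Genes named were the members and, of each pathway list, up to 3 called genes with the largest difference. Paralog shares planned for COX4I2, COX6A2 and COX7A1 were not computed, since the expression table used here held no rows for these genes. Exact tests used scipy 1.17.1 and figures matplotlib 3.10.9, in Python 3.11.15. Alternatives changed the pseudocount, filter, scaling, variance trend, replicate block and each library.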

Additional observations from a re-analysis of the deposited data

How the results depend on the processing

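Of the 21 falls, 17 kept their call and direction under all 13 alternatives run, as did 1 of the 3 rises (COX7A2L). The other 4 falls (CYC1, COX7A2, ATP5F1C and ATP5PB) and 2 rises (UQCRQ and ATP5PF) lost the call under some alternatives and kept their direction under all. The number of members lower ran from 17 to 27. The number higher was 1 with median-ratio scaling, without the variance trend and with the replicate block, and 1 to 2 when 1 library was left out. In complexes III and V the 1 rise each became 0 with median-ratio scaling, without the variance trend, with the replicate block and, in complex III, with quantile normalization. Leaving out 1 library gave 0 to 1 rises in complex III and 0 in complex V. Quantile normalization gave 2 rises in complex IV. Replicate numbers did not pair the libraries (correlation of same-numbered deviations 0.04, -0.01 and -0.01, and not every library correlated best with its own number). With the replicate block 19 members were lower and 1 higher, and over all genes 2384 were lower and 3392 higher, against 2598 and 3713 without it. COX7B was called lower with it (adjusted p = 0.00534), and the calls of CYC1 (0.0641), COX7A2 (0.0542), ATP5F1C (0.0793), UQCRQ (0.0809) and ATP5PF (0.0837) were lost.

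The median log2 difference with median-ratio scaling was -0.38 in complex II, -0.24 in complex III, -0.19 in complex IV, -0.23 in complex V and 0.0030 over all genes. With quantile normalization it was -0.36 in complex II and 0.0072 over all genes. It was -0.26 in complex III with a filter of 5 FPKM and 0.073 over all genes with a pseudocount of 0.1. When 1 library was left out it ran from -0.19 to -0.15 in complex III, from -0.17 to -0.11 in complex IV, from -0.21 to -0.14 in complex V and from 0.061 to 0.067 over all genes. All 20 members that were not called crossed the threshold or changed sign under at least 1 alternative. Median-ratio scaling added limma calls of lower for UQCRH (adjusted p = 0.00711), COX5B (0.0260), COX6C (0.0287), ATP5F1A (0.0420), ATP5IF1 (0.0394) and ATP5ME (0.0274). Quantile normalization added calls of lower for SDHC (0.0488) and ATP5F1A (0.0496) and a call of higher for COX6A1 (log2 difference 0.15, adjusted p = 0.0109). Signs changed with median-ratio scaling for UQCR11 (-0.016), UQCRC1 (-0.053), COX4I1 (-0.0068), COX5A (-0.032), COX6A1 (-0.049) and ATP5PD (-0.028), and with quantile normalization for UQCRH (0.0082), ATP5F1B (0.00013) and ATP5MG (0.016). Without 1 library the values ran from -0.19 to 0.10 for ATP5F1B, from -0.15 to 0.083 for ATP5F1D, from -0.29 to 0.049 for ATP5MC2, from -0.10 to 0.0065 for ATP5MG, from -0.00011 to 0.039 for COX6A1, from -0.14 to 0.029 for CYCS, from -0.017 to 0.068 for UQCRC1 and from -0.11 to 0.033 for UQCRHL. The causes of these changes were not tested. The number of reads is unknown, so counting error cannot be given.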
